A study of Mus musculus with 9 samples.

Results

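The levels of 10 abundant or snoRNA-hosting noncoding RNAs were read from RNA sequencing of 9 mouse kidney libraries: Malat1, Neat1, Gas5, Snhg1, Snhg3, Snhg5, Snhg6, Snhg8, Snhg11 and Snhg12. They were taken by gene name and made up 10 of the 52636 genes in the deposited tables. The tables class Malat1, Neat1, Snhg6 and Snhg12 as lincRNA, Gas5, Snhg1, Snhg3, Snhg5 and Snhg8 as processed transcript, and Snhg11 as protein coding. Of the libraries, 3 are labelled C59A, 3 C59S and 3 wild type (WT). C59A and C59S are knock-in alleles of Nfkb1 in which the codon for cysteine 59 of the p50 protein is changed, and both carry a PGK-neo cassette in a nearby intron that WT lacks. They were made in C57BL/6NTac-derived ES cells injected into C57BL/6 blastocysts. The sample labels call C59A activated and C59S inactivated, whereas the design text on DNA binding gives the opposite order, so the alleles are named here only by their codon change. Counts per gene do not show a codon change, so the genotype itself could not be checked. The labels state neither the animals' age nor their sex, litter or batch. They also do not say whether replicates come from different mice, so every p-value refers to library-to-library spread, which may be technical.

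Malat1 and Neat1 are unspliced or little spliced RNAs that stay in the nucleus. Malat1 gathers in nuclear speckles, where splicing factors are stored, and Neat1 is the scaffold on which paraspeckles form. Gas5 and the Snhg genes are hosts of small nucleolar RNAs (snoRNAs): the snoRNAs are cut out of their introns and guide the chemical modification of ribosomal RNA, while the spliced host RNA is exported and, for several hosts, destroyed by nonsense-mediated decay. Gas5 is named for its rise in growth-arrested cells.

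Library depth was 16367403 to 25787659 counts. Mitochondrial genes took 20.8% to 28.8% of counts in C59A, 20.5% to 40.6% in C59S and 16.4% to 19.6% in WT, with the highest share in C59S replicate 3. All 8 kidney markers, among them Umod and Lrp2, were present, with summed levels (CPM, counts scaled to a common library size) of 8087 to 8878 in C59A, 8171 to 8561 CPM in C59S and 11249 to 13018 CPM in WT. Slc34a1 had the highest level of the 8 in every library, so these sums follow it most. The Y-linked genes Eif2s3y, Ddx3y, Kdm5d and Uty, all 4 of which rose in C59A against both other genotypes, summed to 167 to 175 CPM in C59A, 0 to 2.56 CPM in C59S and 0 to 0.238 CPM in WT. The C59A allele and the presence of Y-linked reads therefore cannot be told apart in any comparison that uses the C59A libraries.

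Per unit of gene length, the 10 RNAs spanned a wide range of levels. FPKM, which scales fragments to gene length and library size, averaged 319 for Malat1, 111 for Neat1, 33.8 for Snhg8, 28.2 for Snhg11, 20.8 for Gas5, 13.9 for Snhg6, 13.8 for Snhg12, 5.83 for Snhg1, 2.91 for Snhg5 and 0.0913 for Snhg3 over the 9 libraries. The ranges over libraries did not overlap between Malat1 and Neat1, between Neat1 and Snhg8, or between successive genes from Snhg12 down to Snhg3. They did overlap between successive genes from Snhg8 to Snhg12, so the order within that stretch was not fixed. The deposited length was 100% of the gene span for Malat1, Neat1, Snhg1 and Snhg8 and 91.3% for Gas5. It was 53.1% for Snhg6 and 17.4% for Snhg3, so the order also depends on the gene models. By mean count, which also grows with length, Neat1 and Malat1 ranked 21 and 22 among all genes of the table and Snhg11 ranked 461. Snhg3 had 0 to 4 reads in a library and 16 reads in all, around the floor of 3 counts (0.112 to 0.202 CPM), and was not tested. The other 9 passed the filter on low counts and were tested among 17114 genes.

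**Figure D1:**
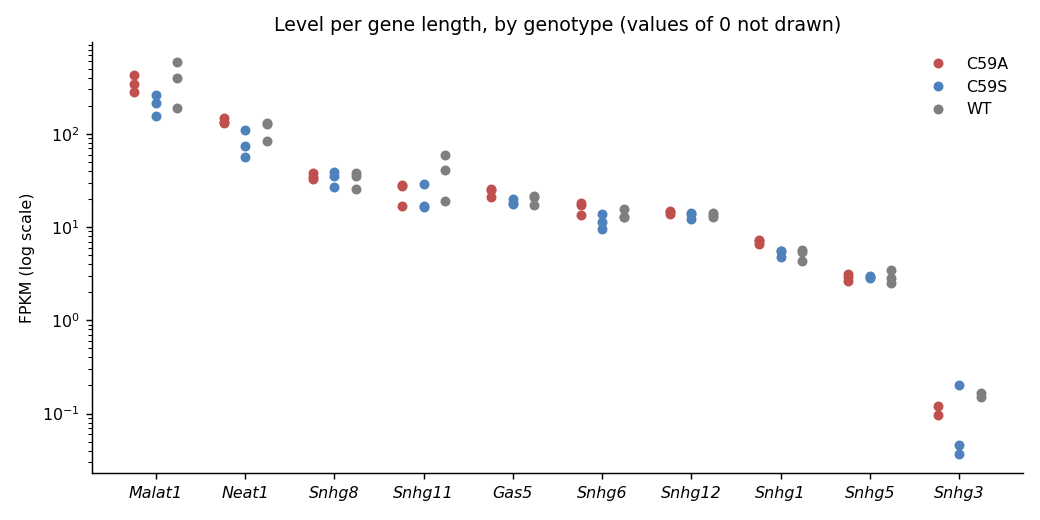
FPKM on a log scale for each of the 10 RNAs, ordered by their mean over the 9 libraries, with a point for each library coloured by genotype. Malat1 lies between 157 and 591 FPKM and Neat1 between 56.8 and 149 FPKM, while Snhg3 stays at or below 0.204 FPKM.

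None of the 9 tested RNAs passed the test in any comparison of genotypes. With the quasi-likelihood test of edgeR and p-values adjusted by Benjamini-Hochberg over all tested genes, 0 of 9 were called in C59A against WT, where 5.7% of all tested genes were called and 9.43% by DESeq2. For C59S against WT the count was 0 of 9 against 0% of all genes, with 3093 genes at an unadjusted p under 0.05, Malat1 and Snhg11 among them. DESeq2 called 3.75% of genes there, and none of the 9. For C59A against C59S it was 0 of 9 against 5.91%, and in the test over all 3 genotypes at once 0 of 9 against 6.72%. The intervals below give the size of difference that each RNA could still have. The comparisons share libraries, so their values are given side by side and not as independent results. In whole tissue, fewer cells of a type and less RNA per cell cannot be told apart.

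Malat1 (ENSMUSG00000092341, chr19:5795690-5802672 on the minus strand of GRCm38) had 2458, 3057 and 1952 CPM in C59A, 1864, 1511 and 1103 CPM in C59S, and 2822, 4217 and 1346 CPM in WT. WT held both the highest library and one of the lowest, and all 3 C59A libraries lay above all 3 C59S libraries. Means were 2489 ± 553 CPM in C59A, 1493 ± 381 CPM in C59S and 2795 ± 1436 CPM in WT (SD, n = 3 each). The log2 fold change of C59S over WT was -0.90 ± 0.37 (SE) with an edgeR adjusted p of 0.237 and a 95% confidence interval of -1.71 to -0.095. Without WT replicate 3, whose Malat1 level was the lowest in that group, it was -1.23 with an edgeR adjusted p of 0.0393, and without WT replicate 2, the highest of that group, it was -0.48 (0.572). Over the 21 alternative fits that adjusted p ran from 0.0393 to 0.844, and Malat1 passed only in that one. C59A differed from WT by -0.17 ± 0.36, with an interval from -0.97 to 0.64, and from C59S by 0.74 ± 0.37 (edgeR adjusted p = 0.846 and 0.262).

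Neat1 (ENSMUSG00000092274, chr19:5824708-5845478, minus strand) lies 22036 bases from Malat1 on the same strand. It had 3147, 2790 and 2748 CPM in C59A, 2302, 1563 and 1188 CPM in C59S, and 2708, 2743 and 1782 CPM in WT. The 3 C59A libraries were the highest of all 9, and C59S replicate 3 was the lowest. The lowest C59A library and the highest WT library were almost level. As a share of all counts, WT replicates 1 and 2 (0.304% and 0.296%) lay above C59A replicates 2 and 3 (0.259% and 0.243%). Neat1 averaged 2895 ± 219 CPM in C59A, 1684 ± 567 CPM in C59S and 2411 ± 545 CPM in WT. C59A stood 0.78 ± 0.26 above C59S on the log2 scale, with an interval from 0.21 to 1.35 and an edgeR adjusted p of 0.103. The call depended on the processing. Neat1 was called with no filter on low counts (edgeR adjusted p = 0.0241), by DESeq2 (adjusted p = 0.0149, where 10.3% of all genes were called), with the replicate number as a block (log2 fold change 0.83, edgeR adjusted p = 0.0467) and without C59S replicate 1 (log2 fold change 1.07, edgeR adjusted p = 0.0418), and its adjusted p ran from 0.0149 to 0.312 over the 21 alternatives. Against WT, Neat1 gave 0.26 ± 0.26 for C59A and -0.52 ± 0.26 for C59S (edgeR adjusted p = 0.612 and 0.317). These values moved with 1 library: C59A over WT was 0.090 without WT replicate 3, and C59S over WT was -0.32 without C59S replicate 3 and -0.81 without C59S replicate 1.

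The ratio of Malat1 to Neat1 counts was 0.710 to 1.10 in C59A, 0.810 to 0.967 in C59S and 0.755 to 1.54 in WT. The ranges overlapped in all 3 pairs of genotypes, with two-sided exact permutation p of 0.6, 0.5 and 0.8 for C59A against WT, C59S against WT and C59A against C59S, where 0.1 is the smallest p that 3 libraries against 3 can give. C59S replicate 3, with the lowest Malat1 and Neat1, was also the library with 40.6% mitochondrial counts. With the mitochondrial share as a covariate, the log2 fold change of Malat1 was -0.089 for C59A over WT, -0.80 for C59S over WT and 0.71 for C59A over C59S. That of Neat1 was 0.43 for C59A over WT, -0.28 for C59S over WT and 0.70 for C59A over C59S, so the covariate changed both values of Neat1 against WT, and that of Malat1 in C59A over WT, by more than 1.5 times. Whether the mitochondrial share has a part in these levels was not tested further.

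**Figure D2:**
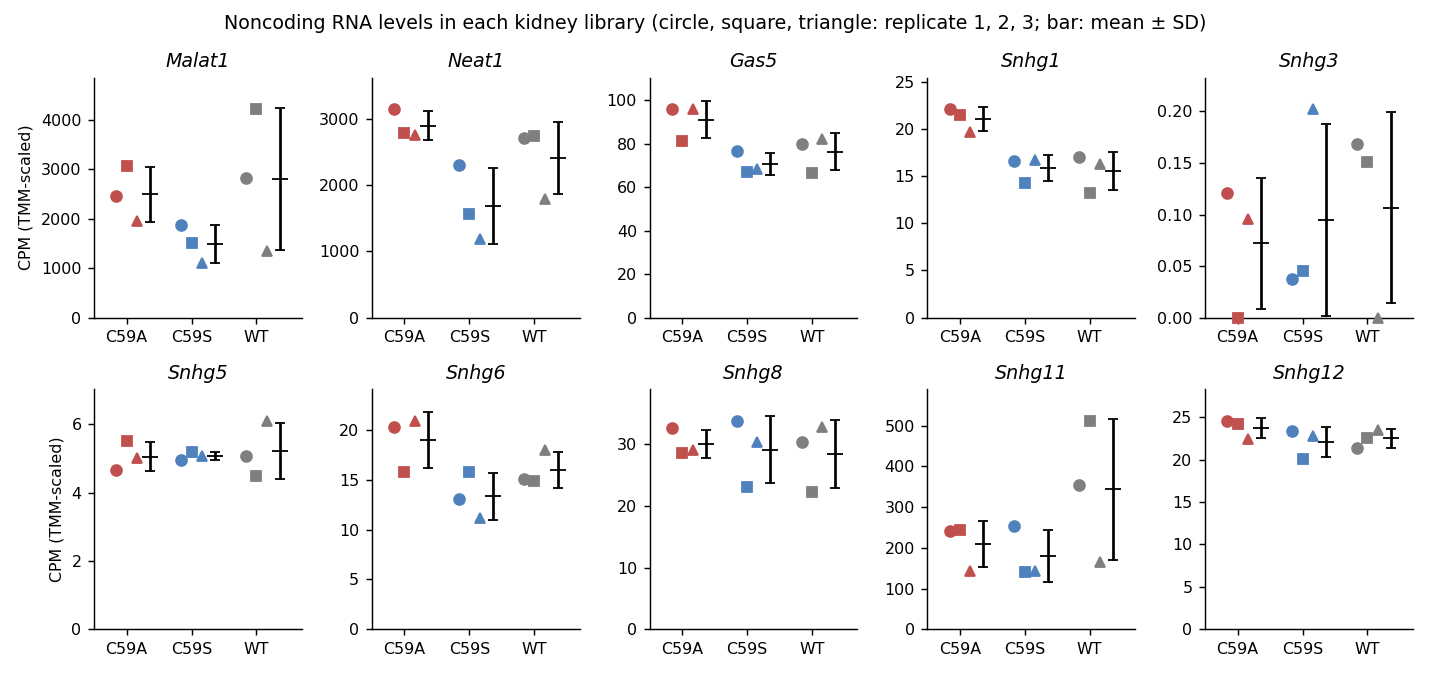
CPM scaled by TMM factors for each of the 10 RNAs in C59A, C59S and WT kidneys; each point is a library, its shape gives the replicate, and the bar beside each group is the mean ± SD. Snhg1 and, by a very narrow margin over WT, Neat1 lie higher in every C59A library than in every other library. Malat1 in WT runs from 1346 to 4217 CPM.

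Among the snoRNA hosts, Gas5 and Snhg1 had the most similar pattern over libraries, though not the same level, as the likeness values further on show. Gas5 (ENSMUSG00000053332, chr1:161034422-161038539, plus strand) had 96.0, 81.3 and 95.8 CPM in C59A, 76.4, 67.1 and 68.4 CPM in C59S, and 79.9, 66.5 and 82.3 CPM in WT. The C59A libraries lay above the C59S libraries, while C59A replicate 2 lay within the WT range. The log2 fold change was 0.26 ± 0.13 for C59A over WT, -0.11 ± 0.13 for C59S over WT and 0.37 ± 0.13 for C59A over C59S (edgeR adjusted p = 0.273, 0.678 and 0.113).

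Snhg1 (ENSMUSG00000108414, chr19:8723475-8726443, plus strand), which hosts a cluster of box C/D snoRNAs, had 22.2, 21.5 and 19.7 CPM in C59A, 16.7, 14.3 and 16.7 CPM in C59S, and 17.1, 13.3 and 16.3 CPM in WT. All 3 C59A libraries were above the other 6. It averaged 21.1 ± 1.28 CPM in C59A, 15.9 ± 1.39 CPM in C59S and 15.6 ± 2.02 CPM in WT. Its log2 fold change of 0.44 ± 0.14 for C59A over WT, with an interval from 0.14 to 0.74, gave the smallest edgeR adjusted p of the 9 in that comparison, 0.0884. The other log2 fold changes were 0.41 ± 0.14 for C59A over C59S (edgeR adjusted p = 0.105) and 0.030 ± 0.14 for C59S over WT (0.931).

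Snhg6 (ENSMUSG00000098234, chr1:9941959-9944118, minus strand), the host of Snord87, had 20.3, 15.8 and 20.9 CPM in C59A, 13.1, 15.7 and 11.1 CPM in C59S, and 15.0, 14.8 and 18.0 CPM in WT. The lowest C59A library and the highest C59S library were almost level. C59A over C59S gave 0.51 ± 0.17 on the log2 scale (edgeR adjusted p = 0.101), C59A over WT 0.25 ± 0.17 and C59S over WT -0.26 ± 0.17 (0.429 and 0.439). In GENCODE M21, 11.1% of its exon bases are shared with Mcmdc2 on the other strand, a gene with 152 reads in all libraries together against 2948 for Snhg6, and the strand setting of the counting is not given in the sources used here.

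Snhg11 (ENSMUSG00000044349, chr2:158375638-158386145, plus strand) is known in mouse for its high level in neurons. It had 240.6, 244.3 and 144.1 CPM in C59A, 253.8, 141.4 and 143.5 CPM in C59S, and 354.0, 512.3 and 165.5 CPM in WT. WT replicates 1 and 2 were the highest of all and WT replicate 3 lay among the knock-in libraries, so no groups were apart. The log2 fold change was -0.71 ± 0.41 for C59A over WT and -0.94 ± 0.41 for C59S over WT (edgeR adjusted p = 0.359 and 0.272), and 0.22 ± 0.41 for C59A over C59S (0.798). Both values against WT moved with single WT libraries: they were -0.31 and -0.53 without WT replicate 2, and -1.04 and -1.27 without WT replicate 3, for C59A and C59S, with edgeR adjusted p from 0.0563 to 0.738. The 8 neuron markers summed to 15.6 to 25.0 CPM in C59A, 21.8 to 30.4 CPM in C59S and 8.35 to 17.7 CPM in WT, mostly Uchl1 and Stmn2, and Snap25 was at or below 0.763 CPM in every library. WT replicate 2, with the highest Snhg11, had the lowest of these sums. Adrenal markers summed to 46.1 CPM in C59S replicate 2 and to 3.37 and 5.48 CPM in the other C59S libraries.

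Snhg12 varied least of the 9 tested RNAs. Snhg12 (ENSMUSG00000086290, chr4:132308678-132311024, plus strand) had 24.6, 24.2 and 22.4 CPM in C59A, 23.3, 20.1 and 22.7 CPM in C59S, and 21.4, 22.6 and 23.5 CPM in WT. Its highest library was 1.22 times its lowest. Its SD of log2 CPM over 9 libraries, 0.090, stood at percentile 2.32 of the 9676 tested genes with a mean of at least 10 CPM, whose median SD was 0.22. The intervals of its log2 fold changes were -0.17 to 0.32 for C59A over WT, -0.28 to 0.22 for C59S over WT and -0.14 to 0.35 for C59A over C59S.

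Snhg5 (ENSMUSG00000097195, chr9:88521050-88522929, minus strand), the host of Snord50a and Snord50b, had 4.65, 5.50 and 5.00 CPM in C59A, 4.96, 5.19 and 5.06 CPM in C59S, and 5.06, 4.48 and 6.10 CPM in WT. Both the lowest and the highest level were in WT. Snhg8 (ENSMUSG00000104960, chr3:123507552-123508404, minus strand), the host of Snora24, had 32.6, 28.6 and 29.0 CPM in C59A, 33.8, 23.1 and 30.4 CPM in C59S, and 30.4, 22.2 and 32.8 CPM in WT. Replicate 2 was the lowest Snhg8 library in each genotype. Snhg8 is on the chromosome of the edited gene, 12.1 Mb from Nfkb1. The log2 fold changes of Snhg5 and Snhg8 in the 3 comparisons lay between -0.045 and 0.078, with edgeR adjusted p from 0.848 to 0.991.

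**Figure D3:**
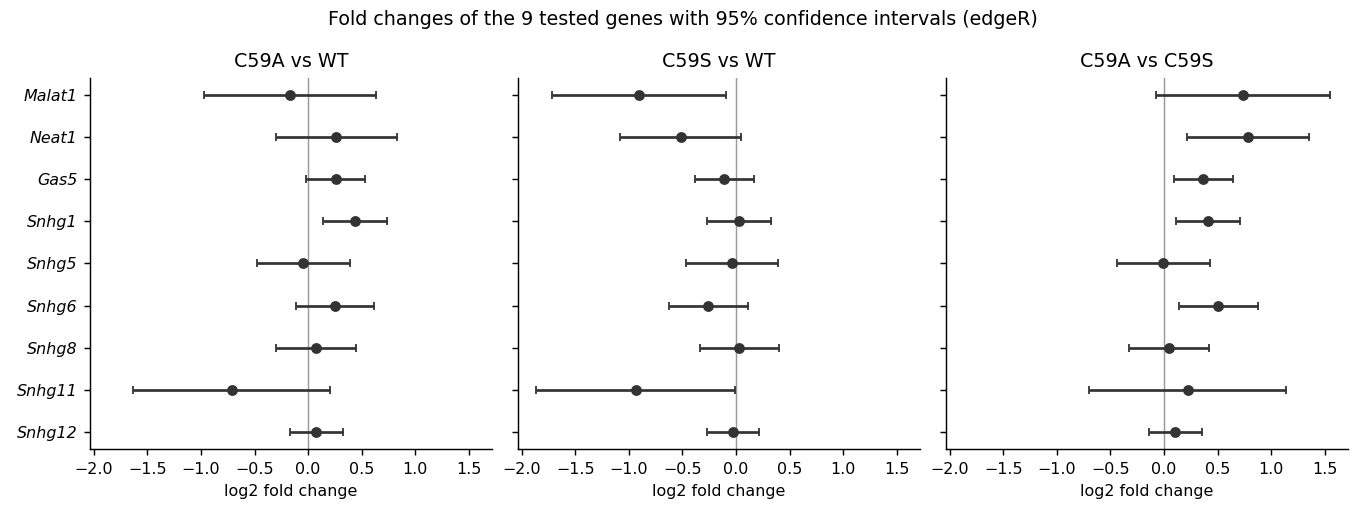
Log2 fold changes from edgeR with 95% confidence intervals for the 9 tested RNAs in C59A against WT, C59S against WT and C59A against C59S. The intervals of Malat1 and Snhg11 are the widest (Snhg11 from -1.86 to -0.012 in C59S against WT) and those of Snhg12 are the narrowest.

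The groups of libraries were also compared by whether they overlapped. On TMM-scaled CPM, 2 of 9 RNAs (Neat1 and Snhg1) lay higher in every C59A than in every WT library, against 12.6% of all tested genes, and none lay lower (12% of all genes). No RNA was apart in C59S against WT, against 11.2% of genes higher and 11.3% lower. In C59A against C59S, Malat1, Neat1, Gas5, Snhg1 and Snhg6, or 5 of 9, were higher in every C59A library, against 14.7% of all tested genes. That count depended on the scale: it was 4 on FPKM (14.6% of all genes), 2 on CPM of the library totals (Neat1 and Snhg1, with 8.06% of all genes) and 1 with mitochondrial genes left out of the totals (Neat1, with 9.17%). With library totals, none of the 9 was apart in C59A against WT, where 4.51% of all genes lay higher and 26.8% lower. The median log2 fold change of the 9 was 0.08 in C59A against WT, -0.11 in C59S against WT and 0.37 in C59A against C59S, beside -0.02, 0.01 and -0.01 over all tested genes. Of the 9 values, 6, 2 and 8 were positive in these comparisons; with library totals these counts were 4, 0 and 8.

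The RNAs differed in how much they varied between libraries. The highest library was 3.82 times the lowest for Malat1, 3.62 times for Snhg11, 2.65 times for Neat1, 1.88 times for Snhg6, 1.67 times for Snhg1, 1.52 times for Snhg8, 1.44 times for Gas5 and 1.36 times for Snhg5. The SD of log2 CPM was 0.62 for Malat1, 0.65 for Snhg11 and 0.48 for Neat1, at percentiles 95.6, 96.0 and 90.2 of the genes with at least 10 CPM. Likeness was measured as the root mean square difference of log2 CPM, each gene centred on its own mean over the 9 libraries, so that a smaller value means a more similar pattern. Among the 9 RNAs the closest pairs were Gas5 with Snhg1 (0.13) and Snhg5 with Snhg12 (0.15), and Malat1 was closer to Snhg11 (0.31) and Neat1 (0.33) than to any other. Malat1 and Snhg11 were both highest in WT replicate 2, and Malat1 and Neat1 were both lowest in C59S replicate 3.

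**Figure D4:**
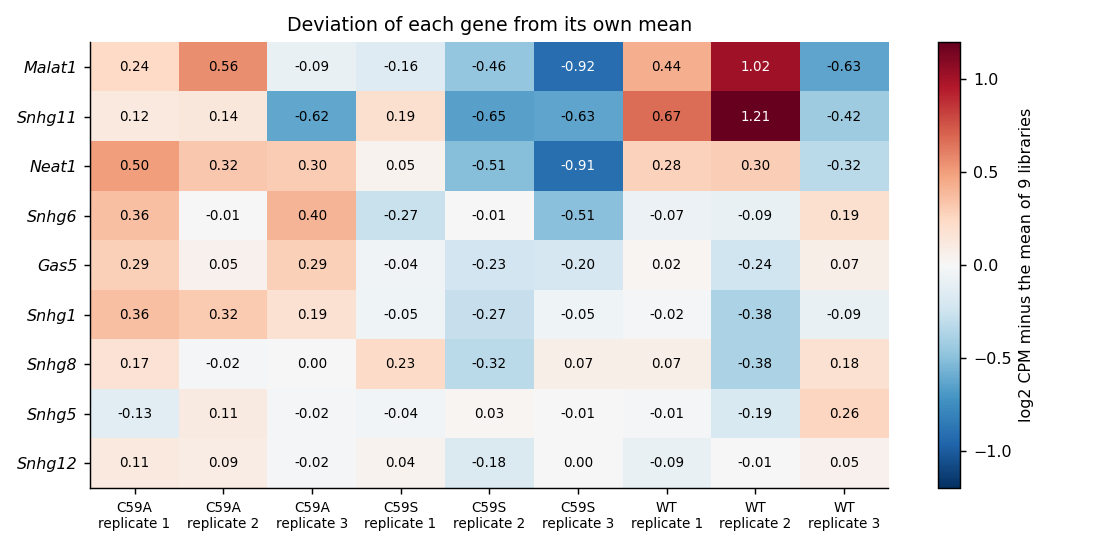
Log2 CPM minus each gene's mean over the 9 libraries, with the RNAs in rows and the libraries in columns from C59A through C59S to WT; red is above and blue below the gene's mean. Snhg11 and Malat1 reach 1.21 and 1.02 in WT replicate 2, and Malat1 and Neat1 reach -0.92 and -0.91 in C59S replicate 3.

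Of 15001 genes with a mean of at least 1 CPM, those most like Malat1 over the 9 libraries were Gm13075, Gm26613 and Gm43775, at 0.21 each against a median of 0.64 over all genes. None of these is classed as protein coding. Those most like Neat1 were Zfp809 (0.14), D930048N14Rik (0.15) and E030042O20Rik (0.16), against a median of 0.52. Those most like Gas5 were Polr1a (0.049), the largest subunit of RNA polymerase I, Sars2 (0.070), a mitochondrial seryl-tRNA synthetase, and Hgs (0.073), an endosomal sorting protein, against a median of 0.32. All genes of a library share its depth and composition, which differ between the 9 libraries, and these values carry no test.

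The host genes hold 31 rows annotated as snoRNA on their own strand, with Snord80 and Snora16a each in a pair of overlapping rows. The count table registered almost no reads for the 31 rows. Together these rows had 35 reads in 9 libraries: 22 for Gm25129 inside Snhg11, 11 for Snord87 inside Snhg6 and 2 for Snora16a inside Snhg12. The 10 rows inside Gas5 and the 8 inside Snhg1 were at 0 in every library, although Gas5 itself had 14530 reads and Snhg1 3184. Of the 31, 27 lie wholly within bases that GENCODE M21 also calls exons of the host, and how the authors counted a read that falls in both is not given. Gm25129 and Snord87 lie outside host exons. The exon length in that annotation, GENCODE M21, equals the deposited length for 9 of the 10 genes. For Snhg12 it is 2402 bases against a deposited 1626, so the deposited length is not that of the GENCODE M21 model. The levels of the snoRNAs themselves were not measured. The 3 snoRNAs with reads and Snord47, a snoRNA of Gas5 with none, are shown because they mark what the hosts carry. Sequences are from the GENCODE M21 transcripts (GRCm38), 5′ to 3′, with capitals for the C box (ATGATGA or GTGATGA near the 5′ end) and D box (CTGA near the 3′ end) of the box C/D class, or for the ACA box near the 3′ end of the H/ACA class.
Gm25129 in Snhg11 (chr2:158379534-158379666, plus strand): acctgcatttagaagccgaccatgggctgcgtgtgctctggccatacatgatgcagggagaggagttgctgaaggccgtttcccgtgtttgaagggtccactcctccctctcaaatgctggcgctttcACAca
Snord87 in Snhg6 (chr1:9942463-9942549, minus strand): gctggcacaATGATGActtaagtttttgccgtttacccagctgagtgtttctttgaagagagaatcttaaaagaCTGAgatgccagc
Snora16a in Snhg12 (chr4:132309464-132309600, plus strand): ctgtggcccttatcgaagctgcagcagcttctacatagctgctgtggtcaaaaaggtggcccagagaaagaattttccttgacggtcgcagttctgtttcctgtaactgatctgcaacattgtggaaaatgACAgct
Snord47 in Gas5 (chr1:161038082-161038158, plus strand): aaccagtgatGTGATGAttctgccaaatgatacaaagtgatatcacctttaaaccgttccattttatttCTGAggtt

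The starts of the RNAs are shown because snoRNA host genes are known for a run of C and T bases at the start of the transcript, as in genes for ribosomal proteins. RefSeq (GRCm38.p6) gave 9 start windows for 8 of the 10 genes, a pair of them for Gas5. Each line runs from 10 bases before to 40 bases from the annotated start, 5′ to 3′ on the gene's strand, with capitals for the longest unbroken run of C or T that begins within 5 bases of the start.
Malat1 (chr19:5802633-5802682, minus strand): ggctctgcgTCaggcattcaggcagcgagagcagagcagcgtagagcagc
Gas5, first start (chr1:161034591-161034640, plus strand): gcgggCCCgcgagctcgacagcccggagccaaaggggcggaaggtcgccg
Gas5, second start (chr1:161035156-161035205, plus strand): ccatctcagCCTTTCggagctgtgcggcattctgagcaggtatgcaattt
Snhg1 (chr19:8723477-8723526, plus strand): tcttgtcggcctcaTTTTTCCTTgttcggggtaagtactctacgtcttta
Snhg3 (chr4:132353647-132353696, minus strand): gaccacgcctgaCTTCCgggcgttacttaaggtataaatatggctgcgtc
Snhg5 (chr9:88522858-88522907, minus strand): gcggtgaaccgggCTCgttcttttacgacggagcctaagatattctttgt
Snhg8 (chr3:123508297-123508346, minus strand): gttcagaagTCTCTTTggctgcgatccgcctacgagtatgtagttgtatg
Snhg11 (chr2:158375703-158375752, plus strand): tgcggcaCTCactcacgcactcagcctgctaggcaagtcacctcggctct
Snhg12 (chr4:132308668-132308717, plus strand): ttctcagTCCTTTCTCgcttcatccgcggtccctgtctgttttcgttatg

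A run of at least 6 was present in 4 of the 9 windows, at the second start of Gas5 and in Snhg1, Snhg8 and Snhg12, against 11.1% of all 32851 RefSeq windows. The runs of Snhg1 and Snhg12 were 9 bases long. These 4 genes include both a gene whose C59A libraries stood above all others (Snhg1) and the one that varied least (Snhg12). Whether the run has a part in these levels was not tested. The window of Malat1 held a run of 2. The letters GGGNNNNNCC, a loose form of the site that NF-kB binds, were searched on both strands of the 300-base windows from 250 bases before the start. They were present in 4 of the 9 windows (both of Gas5, Snhg8 and Snhg11) against 50.8% of all windows. The first Gas5 window held 7 matches, some of them overlapping. A match of letters is a description of the window and not a site.

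Rows classed as lincRNA numbered 5082 and took 0.905%, 0.861% and 0.707% of the counts in C59A, 0.885%, 0.728% and 0.477% in C59S, and 1.17%, 1.27% and 0.751% in WT. WT replicates 1 and 2 were the highest, and WT replicate 3 lay within the range of both knock-in groups. Means were 0.824% ± 0.104 in C59A, 0.697% ± 0.205 in C59S and 1.06% ± 0.276 in WT (SD, n = 3 each). The two-sided exact permutation p was 0.3 for C59A against WT, 0.2 for C59S against WT and 0.6 for C59A against C59S. With 3 libraries against 3, no p under 0.1 is possible. Neat1 and Malat1 were the largest rows of the class, with 27.3% and 26.4% of its counts over all libraries, and Xist, which coats the inactive X chromosome, was next with 8.20%.

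The part of the class held by Malat1 and Neat1 together was 62.7%, 63.0% and 58.8% in C59A, 49.0%, 44.9% and 38.2% in C59S, and 52.9%, 59.1% and 46.7% in WT. All C59A libraries were above all C59S libraries (means 61.5% ± 2.35 and 44.0% ± 5.41), with an exact p of 0.1, the smallest possible. Xist lay beside this: it took 0.00471% ± 0.00300 of lincRNA counts in C59A, 12.8% ± 2.24 in C59S and 11.6% ± 0.716 in WT. Without the 4 members of the class, lincRNA rows took 0.312% ± 0.0230 of counts in C59A, 0.379% ± 0.0795 in C59S and 0.487% ± 0.0802 in WT, with C59A and WT not overlapping (exact p = 0.1). Without Xist as well, the shares were 0.312% ± 0.0229, 0.293% ± 0.0678 and 0.364% ± 0.0532 in C59A, C59S and WT, and all pairs of genotypes overlapped (exact p = 0.3 for C59A against WT, 0.2 for C59S against WT and 0.8 for C59A against C59S).

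**Figure D5:**
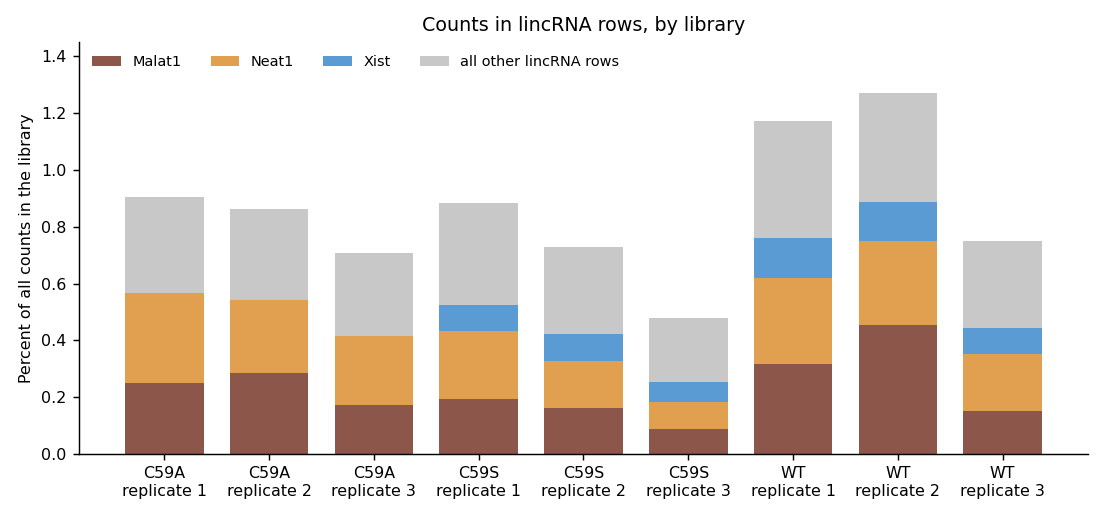
Percent of all counts of each library in lincRNA rows, stacked as Malat1, Neat1, Xist and all other lincRNA rows, with C59A libraries at the left, C59S in the middle and WT at the right. The whole bar runs from 0.477% in C59S replicate 3 to 1.27% in WT replicate 2, and the Xist layer is too thin to see in the C59A bars.

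Genes that work with these RNAs were read from lists chosen with results of these data known. Of 16 tested proteins of the snoRNA particle and its assembly, 2 rose in C59A against WT and none fell, against 3.24% of all genes called higher. They were Nhp2, a core protein of H/ACA particles, and Nop58, a core protein of box C/D particles. Nhp2 had 84.1, 95.4 and 103.6 CPM in C59A, 55.4, 49.8 and 42.6 CPM in C59S, and 43.5, 35.4 and 37.1 CPM in WT. Its C59A libraries were above all others. Its log2 fold change was 1.29 ± 0.14 for C59A over WT and 0.94 ± 0.14 for C59A over C59S (edgeR adjusted p = 0.000326 and 0.00270), and it was called in both comparisons under all 21 alternatives.

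Nop58 had 34.4, 30.8 and 31.9 CPM in C59A, 26.9, 19.9 and 22.1 CPM in C59S, and 23.2, 20.6 and 22.1 CPM in WT. Its log2 fold change was 0.56 ± 0.13 for C59A over WT and 0.49 ± 0.13 for C59A over C59S (edgeR adjusted p = 0.0288 and 0.0480). Those calls were not firm: 13 of 21 alternatives kept the first, with adjusted p from 0.00606 to 0.309, and 9 of 21 the second, from 0.0181 to 0.209. The calls were lost, among others, when C59A replicate 1, C59A replicate 3 or WT replicate 1 was left out. In C59S against WT none of the 16 passed, and the median log2 fold change of the 16 was 0.22, 0.08 and 0.13 in C59A against WT, C59S against WT and C59A against C59S.

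None of the 19 tested paraspeckle proteins, the partners of Neat1, passed in any comparison; the smallest edgeR adjusted p was 0.0652, for Tardbp in C59A against C59S (log2 fold change 0.50 ± 0.14). Of 20 nuclear speckle proteins, Pnn, a splicing regulator, was the 1 that rose in C59A against C59S (0.60 ± 0.15, edgeR adjusted p = 0.0431), against 3.35% of all genes. It kept the call in 10 of 21 alternatives, with adjusted p from 0.00639 to 0.143, and leaving out any 1 library of C59A or C59S ended it. None of the 20 passed against WT, where their median log2 fold changes were -0.16 for C59A and -0.37 for C59S. None of the 16 nonsense-mediated decay factors passed; the smallest edgeR adjusted p was 0.0953, for Smg6 in C59A against WT (-0.33 ± 0.10).

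Of the other Snhg genes, 6 of 9 were tested. Snhg14, a host of snoRNAs in the Prader-Willi region, was the 1 that rose in C59A against C59S, where 3.35% of all tested genes were called higher. Its levels were 8.27, 11.3 and 9.39 CPM for C59A and 5.86, 5.64 and 5.13 CPM for C59S (0.80 ± 0.21, edgeR adjusted p = 0.0469). That call was kept in 9 of 19 alternatives, with adjusted p from 0.0101 to 0.273, and was lost when any 1 library of C59A or C59S was left out. None of the 6 passed against WT. The hosts Zfas1, Dancr and Epb41l4aos did not pass in any comparison. Among 216 tested protein-coding genes with a snoRNA inside them, 8 rose and 7 fell in C59A against WT, and 8 rose and 7 fell in C59A against C59S, or 6.94% in each case, near the 5.7% and 5.91% of all tested genes. None passed in C59S against WT.

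Of 14 tested RNAs in a list of other long or nuclear RNAs, Xist and Firre fell in C59A against WT, against 2.46% of all genes called lower. Xist had 0.725, 0.340 and 0.191 CPM in C59A, 891, 885 and 895 CPM in C59S, and 1249, 1276 and 816 CPM in WT. It was almost absent where Y-linked reads were present, so its fall cannot be told apart from that difference between the libraries. Firre, a nuclear RNA transcribed from the X chromosome, had 167, 188 and 171 CPM in C59A, 182, 165 and 145 CPM in C59S, and 297, 284 and 233 CPM in WT. Both knock-in groups lay below WT without overlap, as 12% of all tested genes did for C59A and 11.3% for C59S. Its log2 fold change was -0.63 ± 0.14 for C59A over WT (edgeR adjusted p = 0.0254, called in 14 of 21 alternatives) and -0.73 ± 0.14 for C59S over WT (0.121, called in 3 of 21). Its adjusted p ran from 0.000518 to 0.113 for C59A over WT, with the call lost without WT replicate 1 or 2 or without C59A replicate 1 or 3, and from 0.000239 to 0.844 for C59S over WT. Mir22hg, the host of a microRNA, was the 1 of the 14 that rose in C59A against C59S, against 3.35% of all genes. It had 44.9, 65.8 and 54.0 CPM in C59A and 27.2, 28.8 and 28.5 CPM in C59S (0.96 ± 0.18, edgeR adjusted p = 0.0107). The call of Mir22hg was kept in 20 of 21 alternatives, with adjusted p from 4.66e-05 to 0.0664.

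Of the 548 tested lincRNA rows that are not among the 10, 16 rose and 10 fell in C59A against WT, none passed in C59S against WT, and 19 rose and 9 fell in C59A against C59S. These were 4.74% of the rows in C59A against WT and 5.11% in C59A against C59S, a little under the 5.7% and 5.91% of all tested genes. Their median log2 fold changes were -0.18, -0.24 and 0.07 in these comparisons, beside 0.08, -0.11 and 0.37 for the 9 RNAs.

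Cell type markers moved in some of the same comparisons. The 8 endothelial markers summed to 514 to 673 CPM in C59A, 848 to 1093 CPM in C59S and 299 to 772 CPM in WT. Of these, 2 fell in C59A against C59S, against 2.56% of all genes called lower. They were Pecam1 and Cdh5 (log2 fold change -0.92 and -0.95, edgeR adjusted p = 0.0396 and 0.0478), called in 10 and 9 of 21 alternatives. None of the 8 was called against WT. The 6 adipocyte markers summed to 6.46 to 215 CPM in C59A, 8.69 to 868 CPM in C59S and 6.36 to 11.5 CPM in WT. The highest sums were in C59S replicates 2 and 3, where Malat1 and Neat1 were lowest among the C59S libraries. Malat1 was lower still in WT replicate 3 than in C59S replicate 2 (1346 and 1511 CPM), with an adipocyte sum of at most 11.5 CPM. The blood markers summed to 296 to 514 CPM in C59A, 235 to 558 CPM in C59S and 143 to 398 CPM in WT. No adipocyte, blood, neuron or adrenal marker passed; the smallest edgeR adjusted p among them was 0.0561, for Nefm of the neuron list in C59A against WT (log2 fold change 1.82 ± 0.50).

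The leukocyte markers summed to 32.2 to 48.0 CPM in C59A, 25.4 to 49.0 CPM in C59S and 21.4 to 36.8 CPM in WT, and 3 of the 8 rose in C59A against WT, against 3.24% of all genes. They were S100a9 and S100a8, which neutrophils carry at high levels, and Itgam, an integrin of myeloid cells. S100a9 had 3.92, 3.40 and 4.34 CPM in C59A, 0.560, 0.632 and 1.89 CPM in C59S, and 0.337, 0.453 and 0.620 CPM in WT. Its log2 fold change was 3.04 ± 0.48 for C59A over WT (edgeR adjusted p = 0.00397, called in 21 of 21 alternatives) and 1.98 ± 0.45 for C59A over C59S (0.0266, called in 16 of 21). S100a8 stood 3.36 ± 0.61 above WT in C59A (0.00905, called in 20 of 21) and Itgam 1.64 ± 0.39 (0.0317, called in 11 of 21, and lost when any 1 WT library or C59A replicate 1 or 2 was left out). The call of S100a8 was lost without WT replicate 1, and that of S100a9 in C59A against C59S without C59A replicate 1 or 3 or C59S replicate 1 or 2. No leukocyte marker passed in C59S against WT.

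Of the 8 kidney markers, 2 fell in C59A against WT, against 2.46% of all genes, and none passed in the other comparisons. The 8 did not move as a set: 3 log2 fold changes were positive and 5 negative in C59A against WT. Aqp2 had 332, 719 and 383 CPM in C59A and 215, 185 and 259 CPM in WT. Slc12a3, the sodium chloride cotransporter of the distal tubule, had 1073, 796 and 1292 CPM in C59A, 1431, 1386 and 1257 CPM in C59S, and 2104, 3304 and 1980 CPM in WT. Its log2 fold change was -1.22 ± 0.24 for C59A over WT (edgeR adjusted p = 0.0130, called in 18 of 21 alternatives and lost without C59A replicate 1). Atp6v1b1, a proton pump subunit of intercalated cells, gave -0.98 ± 0.17 (0.00634, called in 21 of 21). The part of these cell types in the levels of the 10 RNAs was not tested.

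Frmd8, the nearest protein-coding gene of Neat1, was not called in any comparison; its log2 fold change was -0.050 in C59A against WT, -0.022 in C59S against WT and -0.028 in C59A against C59S. Snhg3 shares 13.7% of its exon bases with Rcc1 on its own strand and 71.5% with Gm17300 on the other, and how reads in shared bases were assigned is not given in the sources used here.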

How the data were processed

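Per the labels, kidney RNA was extracted with TRIzol and sequencing libraries were prepared with a NEBNext Ultra RNA kit. The submitters' processing notes name the build GRCm38 and, among their tools, HISAT2 2.0.5 and featureCounts 1.5.0-p3; whether counting used strand, which annotation release it used and how it treated shared reads are not given in the sources used here. The deposited count table holds whole read counts for each gene, with no normalization by the authors. The FPKM values deposited by the authors are those counts over gene length and over a library constant, which was 0.802 to 1.15 times the total.

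Counts were filtered with edgeR's filterByExpr and fitted for all 9 libraries in 1 model of 3 genotypes in R 4.3.3 with edgeR 4.0.16 (TMM factors of 0.797 to 1.124, robust quasi-likelihood fit). Genes with a Benjamini-Hochberg adjusted p under 0.05 over all 17114 tested genes were called. CPM uses the total times the TMM factor. An SE is the log2 fold change over the square root of F, and intervals are 95%. Shares of counts were compared with two-sided exact permutation tests over libraries. The fitting code was tested on simulated data.

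Alternatives were RLE factors or library totals, other filters (none, or 1 CPM in 3 libraries), DESeq2 1.42.0, only the 2 groups compared, the replicate number as a block, the mitochondrial share as covariate, mitochondrial genes left out, limma 3.58.1 on log2 FPKM (pseudocount 1 or 0.1, genes averaging 0.5 FPKM or more, and pseudocount 1 unfiltered), and each library left out. Those for the test over 3 genotypes, for Xist and for genes outside the 10 were chosen after seeing the data. Replicate libraries were checked for duplicates and none was found (chi-square per degree of freedom 24.7 to 136). Deviations from group means had r = 0.36, 0.20 and 0.26 between same-numbered C59S and WT libraries. Between C59A and same-numbered libraries of the other groups, r ran from -0.33 to 0.057. Pairs with different numbers reached r = 0.33 (C59A replicate 2 with C59S replicate 1) and 0.30 (C59A replicate 3 with C59S replicate 2). The 3 deviations of a group sum to 0, so these values are not independent. The check therefore cannot decide whether the numbers pair libraries, and the labels give no pairing.

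The 10 genes and all lists were chosen with earlier results of these data known. Named genes are the 10, the called genes of smallest p in each short list (up to 3, or the 1 of smallest p where none was called), the 3 genes most like Malat1, Neat1 and Gas5, and rows that overlap or neighbour the 10. Some genes that this rule names are not reported here. Protein-coding snoRNA hosts and other lincRNA rows were only counted. Start windows are from RefSeq tables (GRCm38.p6); snoRNA sequences and exons are from GENCODE M21.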

Additional observations from a re-analysis of the deposited data

How the results depend on the processing

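The count of RNAs called was 0 in each comparison and kept that value under RLE factors, library totals, the stricter filter, only the 2 groups compared, either treatment of mitochondrial reads and the FPKM fits. It was 1 for C59A against C59S with no filter, with DESeq2 and with the replicate block (Neat1 each time; 0.83 and adjusted p = 0.0467 with the block), and 1 over 3 genotypes with no filter. The block changed no other call of the 9 RNAs, and the labels do not say that the numbers pair libraries. With 1 library left out, the counts ran from 0 to 1 for C59S against WT, from 0 to 1 for C59A against C59S and from 0 to 1 over 3 genotypes. Library totals moved the median log2 fold change of all genes to -0.26 in C59A against WT and -0.19 in C59S against WT, and reversed Snhg8 (-0.16) and Snhg12 (-0.16) in the first and Snhg1 (-0.17) and Snhg8 (-0.17) in the second. The mitochondrial covariate reversed Snhg1 (-0.037), Snhg6 (0.011) and Snhg8 (-0.019) in C59S against WT. Snhg5 in C59A against C59S reversed with RLE factors (0.0038) and DESeq2 (0.0048). Leaving out 1 library gave -0.50 to 0.26 for Malat1 in C59A against WT. It gave -0.14 to 0.086 (C59A against WT), -0.14 to 0.092 (C59S against WT) and -0.070 to 0.060 (C59A against C59S) for Snhg5, and -0.071 to 0.19, -0.12 to 0.18 and -0.097 to 0.17 for Snhg8 in the same comparisons. In C59S against WT it gave -0.073 to 0.10 for Snhg1 and -0.070 to 0.038 for Snhg12. The lincRNA share without the members, C59A minus C59S, was -0.0671 percentage points, but 0.00118 as a share of summed FPKM and 0.0189 without Xist. The cause of these changes was not tested. Depth limits Snhg3, and the spread of 3 libraries limits Malat1, Neat1 and Snhg11.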
